A study of Mus musculus with 8 samples.

Results

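The transcripts of 7 adipokines, secreted factors of white fat, were followed in nuclei of mouse visceral white adipose tissue: Adipoq, Lep, Retn, Nrg4, Rbp4, Cfd and Nampt. They were taken by symbol from the feature list, where each symbol matched 1 feature, so the members were 7 of 56749 features, and each had counts in all 8 libraries. Snap-frozen tissue of 8 mice, 2 in each of 4 groups, was lysed, and nuclei sorted on the DNA dye DAPI were profiled with 10x Genomics 3′ chemistry, which counts RNA molecules by unique molecular identifiers (UMIs). Mice of genotype p21+/mCherry were on a standard diet in 1 group (mCherry SD). High-fat diet was given to the 3 remaining groups, of the genotypes p21+/mCherry (mCherry HFD), p21+/mCherry-Tert (Tert HFD) and p21+/mCherry-TertCi (TertCi HFD). The mice of a group are called mouse A and mouse B, in the order of their numbers in the labels, and values of a group are given in that order. Every mouse, controls included, thus carried 1 modified allele of p21, the cell cycle inhibitor encoded by Cdkn1a, with the red fluorescent protein mCherry. Tert, the catalytic subunit of telomerase, was driven by the p21 promoter and therefore in cells that use that promoter, not in adipocytes alone. The labels do not say what sets TertCi apart from Tert, and they give no strain, sex, age or time on diet. The series' design text names the stromal vascular fraction and p21+/- mice on the high-fat diet; the sample labels, which name tissue and p21+/mCherry, were followed.

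Adipokines carry information from fat to other organs. Adiponectin (Adipoq) is a product of mature adipocytes that acts through Adipor1, Adipor2 and T-cadherin (Cdh13), and its circulating level is known to fall in obesity. Leptin (Lep) reports fat stores to the brain and rises with fat cell size. Resistin (Retn) is made by adipocytes in mice. Neuregulin 4 (Nrg4) binds ErbB receptors, mainly ErbB4. Rbp4 carries retinol, Cfd (adipsin) is the protease that starts the alternative complement pathway, and Nampt, the rate-limiting enzyme of NAD salvage, is made by most cell types and also secreted.

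The sequences just upstream of 4 of these genes are shown, because Adipoq, Lep and Nrg4 are adipocyte transcripts that behaved differently here and Nampt had counts in every class of nuclei. RefSeq promoters of build GRCm38.p6 matched 7 of the 7 members. The 250 bases before the start site are printed 5′ to 3′ on the gene's strand, and capitals mark matches on either strand to CCAAT or to TTGCNNAA, a form of the binding motif of C/EBP factors.
Adipoq, chr16:23146286-23146535, plus strand: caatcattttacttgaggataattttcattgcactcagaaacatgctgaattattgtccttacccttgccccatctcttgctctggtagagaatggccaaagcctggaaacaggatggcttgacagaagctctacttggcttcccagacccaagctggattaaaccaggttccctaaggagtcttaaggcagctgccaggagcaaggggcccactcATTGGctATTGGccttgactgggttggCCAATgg
Lep, chr6:29059971-29060220, plus strand: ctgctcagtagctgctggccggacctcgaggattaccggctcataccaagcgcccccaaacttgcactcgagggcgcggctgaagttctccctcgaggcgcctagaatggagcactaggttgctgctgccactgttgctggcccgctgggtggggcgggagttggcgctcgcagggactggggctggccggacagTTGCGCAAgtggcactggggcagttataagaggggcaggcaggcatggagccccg
Nrg4, chr9:55283626-55283875, minus strand: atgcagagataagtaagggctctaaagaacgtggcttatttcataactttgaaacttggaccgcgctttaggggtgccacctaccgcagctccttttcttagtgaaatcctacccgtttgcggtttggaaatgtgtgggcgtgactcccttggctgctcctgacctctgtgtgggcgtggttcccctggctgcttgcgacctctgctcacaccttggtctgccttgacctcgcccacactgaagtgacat
Nampt, chr12:32820085-32820334, plus strand: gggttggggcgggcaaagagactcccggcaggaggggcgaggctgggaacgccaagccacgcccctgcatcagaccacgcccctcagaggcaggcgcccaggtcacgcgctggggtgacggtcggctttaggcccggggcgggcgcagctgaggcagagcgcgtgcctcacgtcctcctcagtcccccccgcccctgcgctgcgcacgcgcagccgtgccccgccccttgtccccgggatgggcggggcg
The Adipoq window on chromosome 16 held 3 CCAAT matches, which begin 34, 27 and 7 bases before the start. CCAAT matched in 33.8% of all 32851 promoters of that length. In the Lep window, on chromosome 6, 1 TTGCNNAA match begins 55 bases before the start, and that motif matched in 9.56% of promoters. The Nrg4 and Nampt windows had no match to the first 2 motifs or to the TATA box TATAAA, which matched in 12.4% of promoters. They also had no match to the E-box CACGTG (6.02% of promoters) or to TCACNCCAC, a sterol element (1.05%). G and C made up 75.6% of the Nampt window against 48.8% in Adipoq, 53.2% in Nrg4 and 65.6% in Lep. A match is a description of letters only.

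Libraries held 23378488 to 139749876 UMIs, and 30209 barcodes were kept as nuclei, of which 119 barcode sequences occurred in more than 1 library. The UMI cutoff for a nucleus differed between libraries, from 986.5 in Tert HFD mouse B to 4704 in mCherry HFD mouse A. Shares of nuclei, depths and counts per nucleus thus compare nuclei above different cutoffs. Of 36 clusters, 5 were adipocyte-like, with 10 of 10 adipocyte markers raised in each, and 14 held raised markers of unrelated lineages and were called mixed. Adipocyte-like nuclei were 35.7% and 37.5% of nuclei in mCherry SD, 3.73% and 3.44% in mCherry HFD, 19.7% and 34.1% in Tert HFD, and 35.4% and 36.4% in TertCi HFD. Only 277 and 99 adipocyte-like nuclei therefore stand behind the mCherry HFD values, against 685 to 2021 in each other mouse. The groups drew them from different clusters: in mCherry SD 47.5% came from cluster 14, which is led by Cyp2e1 and Erbb4 and had 0 nuclei in mCherry HFD, and in TertCi HFD 60.1% came from cluster 15. In Tert HFD, 30.4% came from cluster 16, of which 87.7% was mouse B, a cluster with a median of 1733 UMIs. The summed adipocyte markers of these nuclei ran from 5063 to 6978 CPM, the UMIs of a gene per 1000000 UMIs of the class, in mCherry HFD and from 5155 to 7576 in mCherry SD. In Tert HFD they ran from 4006 to 8699 and in TertCi HFD from 5947 to 7440. Single markers moved in opposite directions. Adrb3 went from 628 and 850 CPM in mCherry SD to 154 and 135 in mCherry HFD, and Acvr1c, Lipe and Pck1 were also lower in both mCherry HFD mice. Acsl1 went from 533 and 1113 to 2125 and 1693, and Dgat2 was also higher, while the mice overlapped for the rest of the list. The progenitor markers of the adipocyte-like nuclei summed to 1316 and 1854 CPM in mCherry HFD, 619 to 648 in mCherry SD, 539 to 831 in Tert HFD and 298 to 523 in TertCi HFD. The 10 macrophage markers summed to 1513 to 1624, 1107 to 1304, 838 to 1174 and 682 to 828 CPM in the same order, with none of the 10 at 0. Cdkn1a over all barcodes was 14.3 to 17.1 CPM in mCherry HFD, 1.57 to 3.19 in mCherry SD and 4.28 to 8.48 in the other groups. Neither transgene checked the labels: mCherry had 25 UMIs in all, and Tert was 2.01 to 2.76 CPM in the Tert and TertCi libraries against 3.27 to 3.98 in the mCherry libraries.

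Nrg4 showed the clearest difference of the 7 within adipocyte-like nuclei. It stood at 994 and 1026 CPM in mCherry SD (1010 ± 22.6, SD, n = 2), 458 and 274 in mCherry HFD (366 ± 130), 639 and 465 in Tert HFD (552 ± 123), and 627 and 589 in TertCi HFD (608 ± 26.5). Both mCherry SD mice lay above the other 6, both mCherry HFD mice lay below the other 6, and the Tert and TertCi ranges overlapped. On the high-fat diet Nrg4 fell by 1.86 on the log2 scale (SE 0.23, edgeR quasi-likelihood test, adjusted p = 0.00193). In TertCi HFD it was higher than in mCherry HFD by 1.23 (SE 0.23, adjusted p = 0.00935). The Tert HFD difference, 0.92 (SE 0.23), had an adjusted p of 0.0515. The fits use a factor for composition that the printed CPM levels lack. For all 7 members the fitted diet change was lower than the mean CPM levels give. Their fitted Tert HFD and TertCi HFD changes were higher than those levels give. Mean CPM of Nrg4 in mCherry HFD was 36.2% of that in mCherry SD, a smaller fall than the fitted one. The CPM levels are shares of the nuclear RNA, and per nucleus the picture was different. The mCherry HFD adipocyte-like nuclei were deep, with a median of 17254 UMIs in mouse A and 8082 in mouse B, which is 2.45 and 2.72 times the median of their library. In mCherry SD that ratio was 0.972 and 1.07. UMIs of Nrg4 per 100 nuclei were 541 and 782 in mCherry SD and 974 and 304 in mCherry HFD, so that the ranges overlapped. Such raw counts per nucleus also carry the depth of each library, whose nuclei had a median of 7037 and 2966 UMIs in mCherry HFD. Without nuclei above 3 times the median UMIs of their library, which removed 36.5% and 43.4% of mCherry HFD adipocyte-like nuclei, the Nrg4 fall was 1.31 on the log2 scale (adjusted p = 0.00284). Within cluster 15 alone the mCherry HFD value was lower by 0.61 (log2 fold change -0.61, adjusted p = 0.234), whereas within cluster 5 it fell by 1.80 (adjusted p = 0.000577) and within cluster 11 by 1.38 (adjusted p = 0.00346). Cluster 15 held only 31 and 40 nuclei in mCherry SD and 100 and 27 in mCherry HFD. Its missed threshold does not show that Nrg4 was the same there. Cluster 5 held 322 and 304 nuclei in mCherry SD and 95 and 39 in mCherry HFD. Cluster 5 had 8 of 10 progenitor markers and cluster 11 had 6 of 10 macrophage markers raised beside the adipocyte markers, and cluster 15 had 2 mural markers raised as its second list; the part of these in the differences was not tested.

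**Figure D1:**
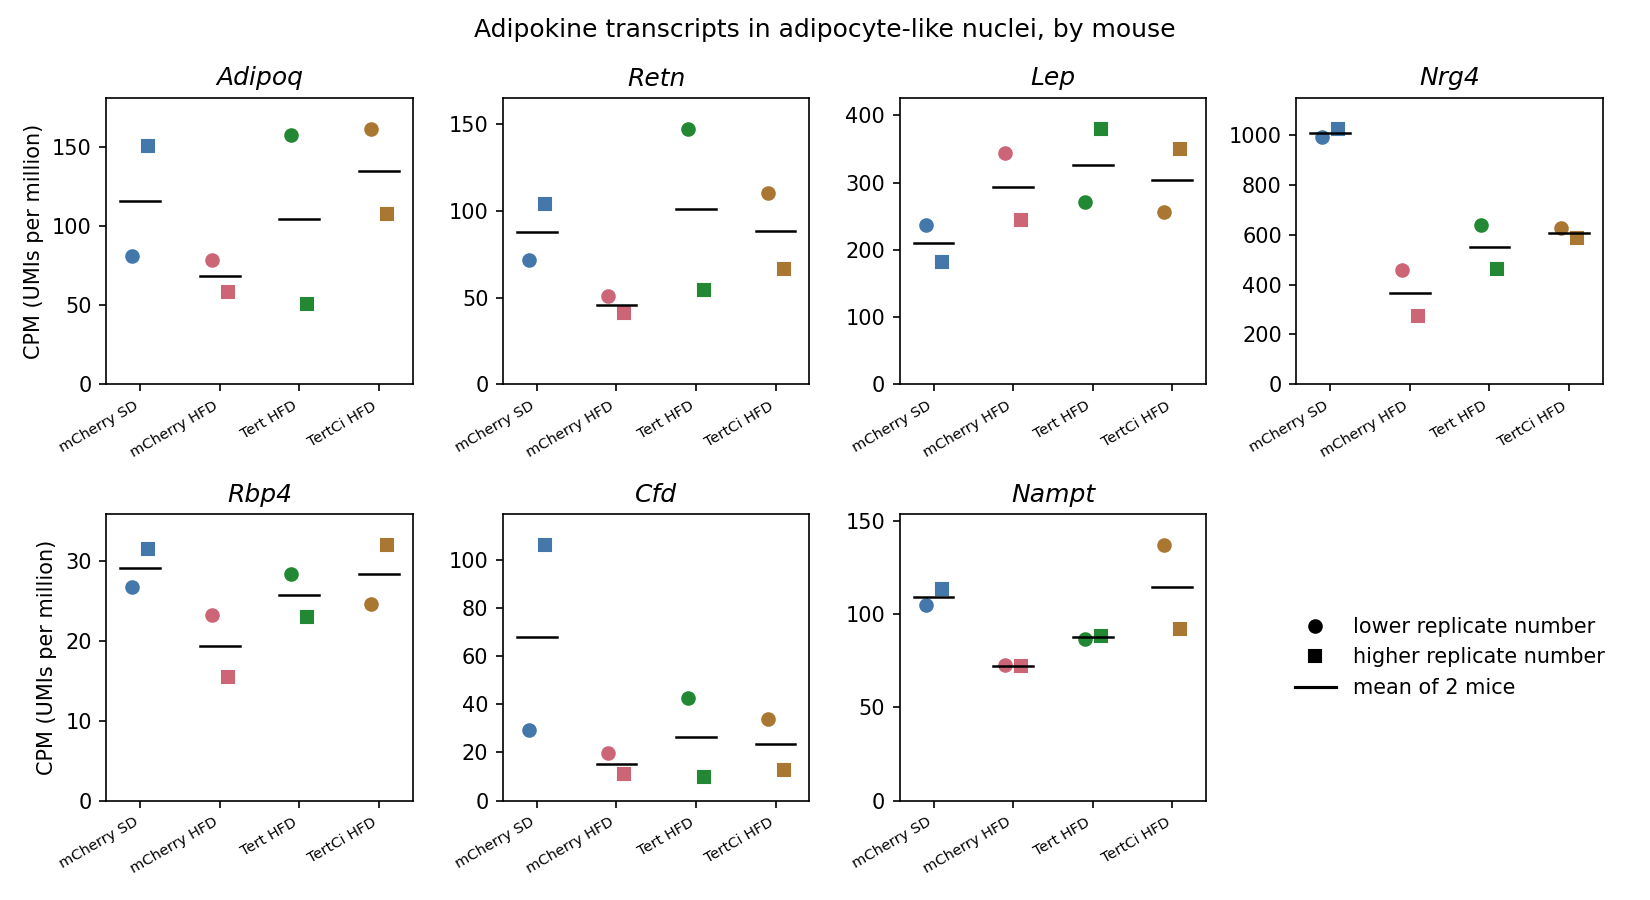
Levels in CPM (linear axes from 0) of the 7 adipokine transcripts in adipocyte-like nuclei of each mouse; circles and squares are the 2 mice of a group and the line is their mean. Nrg4 was at 994 and 1026 CPM in mCherry SD and at 274 and 458 CPM in mCherry HFD, while Lep in mCherry HFD was not below mCherry SD.

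Adiponectin and resistin varied widely between mice of 1 group. Adipoq was 81.3 and 150.5 CPM in mCherry SD, 78.3 and 58.2 in mCherry HFD, 157 and 51.0 in Tert HFD, and 162 and 108 in TertCi HFD. Both mCherry HFD mice lay below the lower mCherry SD mouse, and the log2 fold change of -1.12 (SE 0.41) was not past the threshold (edgeR adjusted p = 0.0734). In TertCi HFD Adipoq rose by 1.46 over mCherry HFD (SE 0.41, adjusted p = 0.0352), with both mice above both mCherry HFD mice. Tert HFD had 1 mouse above and 1 below all mCherry HFD values, with a log2 fold change of 0.88 (adjusted p = 0.199). That value was 0.11 without Tert HFD mouse A and 1.39 without mouse B.

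Resistin also spread widely within the Tert HFD group. Its Retn levels were 72.0 and 103.9 CPM in mCherry SD, 51.1 and 40.9 in mCherry HFD, 148 and 54.2 in Tert HFD, and 110.4 and 66.3 in TertCi HFD. The mCherry HFD mice were the lowest 2 of the 8. Retn fell by 1.30 on the log2 scale with the diet (SE 0.37, edgeR adjusted p = 0.0315) and was higher in TertCi HFD by 1.42 (SE 0.36, adjusted p = 0.0268). The Tert HFD difference of 1.41 (SE 0.37, adjusted p = 0.0584) was of about that size and missed the threshold.

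Leptin was the member without a lower level in mCherry HFD adipocyte-like nuclei. Lep was 238 and 183 CPM in mCherry SD, 344 and 244 in mCherry HFD, 271 and 380 in Tert HFD, and 256 and 351 in TertCi HFD. Both mCherry SD mice lay below the other 6. The edgeR log2 fold change with the diet was 0.08 (SE 0.31, adjusted p = 0.875), and those of Tert HFD and TertCi HFD over mCherry HFD were 0.53 (SE 0.31, adjusted p = 0.308) and 0.55 (SE 0.31, adjusted p = 0.233). On library totals alone, without a factor for composition, the diet value was 0.50 (adjusted p = 0.189). A p that misses the threshold does not show that Lep was the same in these groups.

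The circulating carrier Rbp4 rested on few counts, with 17 to 401 UMIs per mouse. It was 26.7 and 31.5 CPM in mCherry SD, 23.3 and 15.5 in mCherry HFD, 28.4 and 23.0 in Tert HFD, and 24.6 and 32.0 in TertCi HFD. Rbp4 fell by 0.92 on the log2 scale with the diet (SE 0.26, edgeR adjusted p = 0.0305) and rose by 0.99 in TertCi HFD (SE 0.25, adjusted p = 0.0270). Adipsin had the largest fold of the 7 with the diet and also the largest spread. Cfd was 29.5 and 106.4 CPM in mCherry SD, 19.7 and 10.9 in mCherry HFD, 42.8 and 9.73 in Tert HFD, and 33.8 and 12.9 in TertCi HFD. The mCherry SD mice differed by more than the lower of them differed from mCherry HFD. Cfd fell by 2.41 with the diet (SE 0.72, edgeR adjusted p = 0.0396). Without mCherry SD mouse B the value was -1.34 and was not called (adjusted p = 0.217); over the 8 fits that each leave out 1 mouse it ran from -3.06 to -1.34. Its differences in Tert HFD and TertCi HFD, 0.99 (SE 0.72) and 1.02 (SE 0.71), did not pass (adjusted p = 0.406 and 0.329).

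Nampt was 105 and 113 CPM in mCherry SD, 72.8 and 71.9 in mCherry HFD, 86.8 and 88.1 in Tert HFD, and 137 and 92.1 in TertCi HFD. The mCherry HFD mice were the lowest 2 of the 8 and lay next to each other. Nampt fell by 0.99 on the log2 scale with the diet (SE 0.22, edgeR adjusted p = 0.0139) and rose by 1.17 in TertCi HFD (SE 0.22, adjusted p = 0.00939). In mean CPM the changes were smaller, with mCherry HFD at 66.4% of mCherry SD and TertCi HFD at 158% of mCherry HFD. UMIs of Nampt per 100 nuclei, not scaled for depth, were 56.9 and 86.3 in mCherry SD, 155 and 79.8 in mCherry HFD, and 110.5 and 90.3 in TertCi HFD, where the groups overlapped in both comparisons. Its Tert HFD difference was 0.63 (SE 0.22, adjusted p = 0.108).

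Counted together, 5 of the 7 members fell in mCherry HFD adipocyte-like nuclei, where 9.41% of the 16760 genes tested were called lower and 23.6% were called in either direction. The members' median log2 fold change was -1.12, and that of all genes 0.04. In raw UMIs per nucleus the 2 mCherry HFD mice went apart, and the depth of their libraries enters these values. Of the 5 called, mean UMIs per 100 adipocyte-like nuclei were higher in mCherry HFD than in mCherry SD for Retn (77.1 against 59.2), Rbp4 (33.3 against 19.3) and Nampt, and lower for Nrg4 (639 against 661) and Cfd (27.0 against 48.6), and the mice of the 2 groups overlapped for all 5. The higher means came from mCherry HFD mouse A: mouse B had 45.5 for Retn and 17.2 for Rbp4, below the mCherry SD means, and 79.8 for Nampt, within the mCherry SD range. Adipoq, at 166 and 64.6 in mCherry HFD, averaged 79.5 in mCherry SD, and Lep was at 732 and 271 in mCherry HFD against 129.3 and 139 in mCherry SD. In TertCi HFD 5 of 7 rose over mCherry HFD, where 8.56% of genes were called higher and 20.1% were called; the medians were 1.17 and -0.03. Per nucleus, both TertCi HFD mice lay between the mCherry HFD mice for each of these 5. In Tert HFD edgeR called 0 of 7, with 4.62% of genes called. Of the 7, 4 had an unadjusted edgeR p under 0.05, as had 4564 of all 16760 genes. DESeq2 called 2 (Nrg4 and Retn), and its calls over all genes are not given here, so neither count is a result about the members. Both comparisons of transgenic mice share the mCherry HFD mice, which are also one side of the diet comparison. Tert HFD against TertCi HFD gave 0 of 7 and 0 of 16760 genes by edgeR, and DESeq2 called 0 members. By edgeR 1 member had an unadjusted p under 0.05, as had 984 of the 16760 genes. All 7 log2 differences, from -0.58 (Adipoq, SE 0.39) to -0.02 (Retn, SE 0.34), were on the lower side in Tert HFD. That common sign rests on the composition factor: on library totals Cfd (0.21), Retn (0.20) and Lep (0.10) were on the higher side, with the median of all genes at 0.19.

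These counts rest on single mice and on the scaling. Leaving out mCherry HFD mouse A or mouse B left 1 of 7 called with the diet, Nrg4 each time, and 1 in TertCi HFD, again Nrg4. Over all genes the calls fell too, to 417 of 17623 with the diet and 50 in TertCi HFD without mouse A, and to 1593 of 18012 and 740 without mouse B. Without mCherry SD mouse A the diet calls were 2 (Cfd and Nrg4) among 1084 of 18539 genes, and without mouse B they were 2 (Nampt and Nrg4) among 1999 of 18180. Over the 8 fits that each leave out 1 mouse, the Tert HFD log2 fold change ran from 0.64 to 1.35 for Nrg4 and from 0.77 to 1.86 for Retn. On library totals the median of all genes moved to 0.44 with the diet and to -0.55 in TertCi HFD, the members called were Nrg4 with the diet and Nampt in TertCi HFD, and 3281 of 3725 calls over all genes were higher with the diet, against 2373 of 3950 with composition factors.

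**Figure D2:**
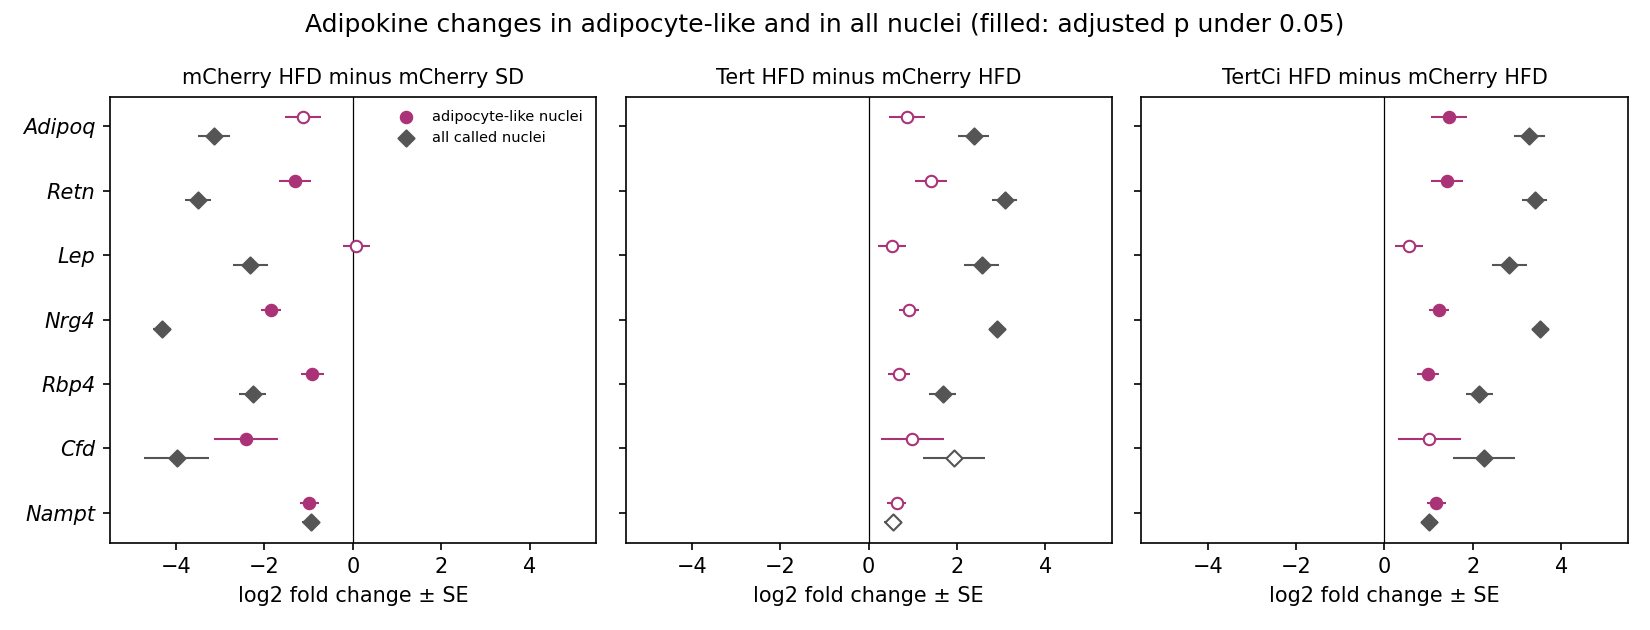
Log2 fold changes with standard errors of the 7 adipokine transcripts in adipocyte-like nuclei (circles) and in all called nuclei (diamonds) for 3 comparisons; filled symbols have an edgeR adjusted p under 0.05. With the diet Nrg4 was at -1.86 in adipocyte-like and -4.32 in all nuclei, while Nampt was at -0.99 and -0.96.

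Over all called nuclei, the sum holds both how many adipocytes there were and what each contained, and fewer cells of a type and less RNA per cell cannot be told apart in it. All 7 members fell with the diet, where 18.5% of 21101 genes were called lower. Nrg4 fell furthest, from 665 and 692 CPM in mCherry SD to 54.7 and 38.8 in mCherry HFD, by 4.32 on the log2 scale (SE 0.20, edgeR adjusted p = 3.39e-05). Retn fell from 47.9 and 73.4 CPM to 7.13 and 7.43, by 3.51 (SE 0.29, adjusted p = 0.000179), and Adipoq from 53.3 and 103.2 to 12.1 and 11.9, by 3.14 (SE 0.36, adjusted p = 0.000665). Lep, called in no comparison within adipocyte-like nuclei, fell here from 153 and 123 CPM to 41.7 and 34.6, by 2.32 (SE 0.39, adjusted p = 0.00342). Cfd fell by 3.99, Rbp4 by 2.27 and Nampt by 0.96. Groups did not overlap for any of these 7, but overlap was not counted over all genes, so this is a description only. In TertCi HFD all 7 rose over mCherry HFD, by 1.01 (Nampt) to 3.53 (Nrg4), where 16.1% of genes were called higher. Tert HFD had 5 of 7 higher, where 10.9% of genes were; Cfd (1.93, adjusted p = 0.0824) and Nampt (0.55, adjusted p = 0.0728) were not called. The Tert HFD calls did not all hold when 1 mouse was left out. Calls over all genes for those fits are not given here, so no result about the members is drawn from the loss. With the log2 share of adipocyte-like UMIs as a covariate none of the 7 was called in any of the 3 comparisons, and the sign of Lep and Nampt turned in each. That share was 8.99% and 8.88% in mCherry HFD and 28.6% to 47.5% in the other mice, so it nearly sets mCherry HFD apart. The fit therefore cannot tell share from group, and no conclusion is drawn from the loss of calls.

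The adipocyte share was then taken into account by holding levels fixed. UMIs of adipocyte-like clusters were 32.0% and 35.3% of nuclear UMIs in mCherry SD, 8.99% and 8.88% in mCherry HFD, 28.6% and 44.5% in Tert HFD, and 46.6% and 47.5% in TertCi HFD. Mixed clusters with adipocyte markers took another 54.2% and 50.6%, 7.85% and 11.3%, 21.8% and 12.6%, and 16.5% and 23.6%. Each library's level was compared with the level it would have if every one of these parts, and the rest, kept its mean mCherry SD level. Nampt was at 95.7% and 106% of that expectation in mCherry HFD, Lep at 96.3% and 74.1%, and Rbp4 at 118% and 61.5%. In mouse A, 135 of the 464 Rbp4 UMIs (29.1%) came from 32 nuclei of a mixed cluster led by Alb, which had 0 nuclei in mCherry SD. Retn was at 34.7% and 33.7%, Adipoq at 41.8% and 38.6%, Nrg4 at 24.1% and 16.0%, and Cfd at 14.7% and 17.1%. The rest made up 83.2% and 79.8% of mCherry HFD UMIs and was held at its mCherry SD level, where macrophage-like nuclei, for example, had 5.51 and 35.7 CPM of Cfd and 99.1 and 80.4 of Nrg4. These percentages therefore compare whole libraries and are not adipocyte levels corrected for share. Both mCherry HFD mice thus lay below both mCherry SD mice for Nrg4, Cfd, Retn and Adipoq, and for Nampt the ranges overlapped. In Tert HFD Nrg4 was at 59.9% and 45.6%, and in TertCi HFD at 62.1% and 60.3%. Lep exceeded the expectation in all 4 of these mice, at 131% and 182% in Tert HFD and 125% and 172% in TertCi HFD. The mCherry SD mice themselves ran from 41.0% to 159% for Cfd and from 98.9% to 101% for Nrg4. Their own mean levels set the expectation, so their average lies near it by construction. The mCherry SD range is therefore no independent measure of spread for the other groups. For Nrg4 the mice of mCherry HFD and of Tert HFD lay further apart than those of mCherry SD, while those of TertCi HFD did not.

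**Figure D3:**
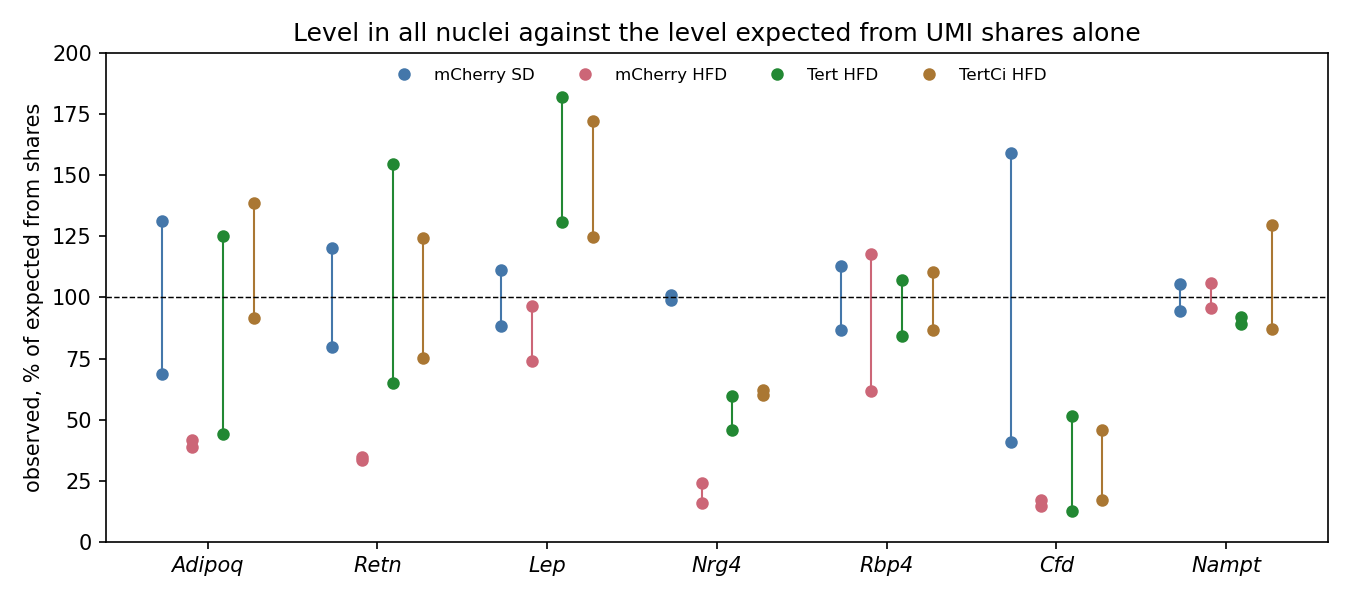
Level of each adipokine transcript in all called nuclei as a percentage of the level expected from UMI shares with mean mCherry SD levels; points are mice and lines join the 2 mice of a group. In mCherry HFD Nrg4 was at 16.0% and 24.1% of that level, while Nampt was at 95.7% and 106%.

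Nampt counts were spread over the classes of nuclei. Across 8 mice it was 71.9 to 137 CPM in adipocyte-like, 59.0 to 89.3 in macrophage-like, 38.5 to 78.8 in progenitor-like, 40.6 to 71.2 in endothelial-like and 23.9 to 68.6 in mesothelial-like nuclei, the last 2 resting on as few as 2 and 1 Nampt UMIs in a mouse. The macrophage-like level was 58.4% to 114% of the adipocyte-like level of the same mouse, so these neighbours in the order overlapped. Nampt was also at 76.0 to 138.2 CPM in barcodes of 30 to 500 UMIs, which hold free RNA of the suspension, or 90.3% to 125% of the adipocyte-like level. Macrophage-like nuclei had 0.515 to 1.01 times that free RNA level, whereas the same ratio for the other 6 members was 0 to 0.291, so that Nampt lay above them in each library. For the other 6 members the macrophage-like level was at most 40.9% (Cfd), of the adipocyte-like level, and its median over mice ran from 5.75% (Lep) to 16.6% (Cfd). Mixed nuclei gave 55.7% and 50.9% of all Nampt UMIs in mCherry SD and 22.2% and 19.9% in mCherry HFD. Adipocyte-like nuclei gave 38.6% and 41.0% in mCherry SD, 10.7% and 9.24% in mCherry HFD, 34.2% and 52.4% in Tert HFD, and 56.9% and 56.1% in TertCi HFD. Macrophage-like nuclei gave 1.72% and 2.96% in mCherry SD and 47.4% and 43.0% in mCherry HFD, more there than mixed, adipocyte-like or progenitor-like nuclei. They were 105 of 2546 and 163 of 2999 nuclei in mCherry SD and 3709 of 7433 and 1383 of 2878 in mCherry HFD, so the size of the class enters these shares. The macrophage-like nuclei came from nearly separate clusters in these groups: cluster 20 held 68.6% and 78.5% of them in mCherry SD and 0.431% and 0.868% in mCherry HFD. Clusters 24 and 30 held 31.9% and 24.7%, and 37.6% and 47.4%, in mCherry HFD, against 0% and 0%, and 0% and 2.45%, in mCherry SD. Within macrophage-like nuclei Nampt itself was 63.3 and 89.3 CPM in mCherry SD and 69.8 and 82.2 in mCherry HFD, with a log2 fold change of -0.21 (SE 0.22, edgeR adjusted p = 0.535).

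A test of the difference between classes, with the mouse as a block, put numbers on this. The diet effect on Nampt was 0.88 lower in adipocyte-like than in macrophage-like nuclei (log2 difference -0.88, SE 0.22, edgeR adjusted p = 0.0223), where 5.46% of 18214 genes were called, and the TertCi HFD effect was 1.16 higher (adjusted p = 0.00164, 7.01% of genes called). The diet difference was not past the threshold without mCherry SD mouse A (adjusted p = 0.150), mouse B (0.0690), mCherry HFD mouse A (0.135) or mouse B (0.162), and the TertCi HFD difference was lost without TertCi HFD mouse A (0.0528). Without the block the adjusted p-values were 0.21 and 0.101. Against progenitor-like nuclei the diet difference of Nampt was also -0.88 but was not called (adjusted p = 0.0523).

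Nrg4 also had counts outside adipocyte-like nuclei, and its macrophage-like and progenitor-like levels moved with the groups. In macrophage-like nuclei it was 99.1 and 80.4 CPM in mCherry SD, 7.85 and 10.9 in mCherry HFD, 32.1 and 32.1 in Tert HFD, and 41.9 and 37.1 in TertCi HFD. Dendritic-like nuclei, 9 to 112 per mouse and in no fit, came from a cluster that also had 9 adipocyte markers raised, a fact whose part was not tested. They had 801 and 579 CPM of Nrg4 in mCherry SD, 4.47 and 5.51 in mCherry HFD, 260 and 264 in Tert HFD, and 160 and 352 in TertCi HFD. Mixed nuclei had 581 and 599 CPM in mCherry SD. Free RNA in barcodes of 30 to 500 UMIs had 706 and 709 CPM of Nrg4 in mCherry SD, 42.5 and 55.4 in mCherry HFD, 290 and 286 in Tert HFD, and 432 and 468 in TertCi HFD, the same order of groups. Nrg4 fell by 3.44 with the diet in macrophage-like (SE 0.28, edgeR adjusted p = 9.75e-06) and by 4.39 in progenitor-like nuclei (SE 0.41, adjusted p = 0.000575). These comparisons also set different clusters side by side, for macrophage-like nuclei as given above, and for progenitor-like nuclei with cluster 31 at 59.8% and 62.6% in mCherry HFD and 0 nuclei in mCherry SD. The fall was smaller in adipocyte-like than in progenitor-like nuclei by 2.62 (SE 0.42, adjusted p = 0.00153, where 1.92% of genes were called). That difference was not past the threshold without mCherry SD mouse B (adjusted p = 0.0753) or mCherry HFD mouse A (1.30, adjusted p = 0.294). The effects of the transgenes on Nrg4 differed by -2.13 in Tert HFD and -2.10 in TertCi HFD, adipocyte-like minus progenitor-like, where 0.368% and 2.19% of genes were called, and neither was past the threshold without mCherry HFD mouse A. Cfd and Retn were also called lower in macrophage-like nuclei with the diet, which made 3 of 6 tested members with 9.96% of genes called lower. Neither was called without mCherry SD mouse B or without mCherry HFD mouse A (adjusted p = 0.0896 for Retn and 0.101 for Cfd). Retn was 2.75 and 17.9 CPM in mCherry SD (1 and 14 UMIs) and 1.80 and 3.13 in mCherry HFD, so the mice overlapped, and without mCherry SD mouse B its adjusted p was 0.839. Cfd was 5.51 and 35.7 CPM (2 and 28 UMIs) against 1.83 and 4.47, and without mCherry SD mouse B its adjusted p was 0.704. In Tert HFD Lep, Nrg4 and Retn rose there and in TertCi HFD Adipoq, Nrg4 and Retn did, 3 of 6 each, with 7.51% and 10.4% of genes called higher. In progenitor-like nuclei the counts were 3 lower with the diet (Adipoq, Cfd, Nrg4), and Lep and Nrg4 higher in both transgenic groups, against 4.02%, 2.78% and 6.41% of genes. Summed adipocyte markers in macrophage-like nuclei moved the same way, at 463 to 838 CPM (mCherry SD), 137.8 to 216 (mCherry HFD), 337 to 349 in Tert HFD and 375 to 492 in TertCi HFD; the part of free RNA in these differences was not tested.

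**Figure D4:**
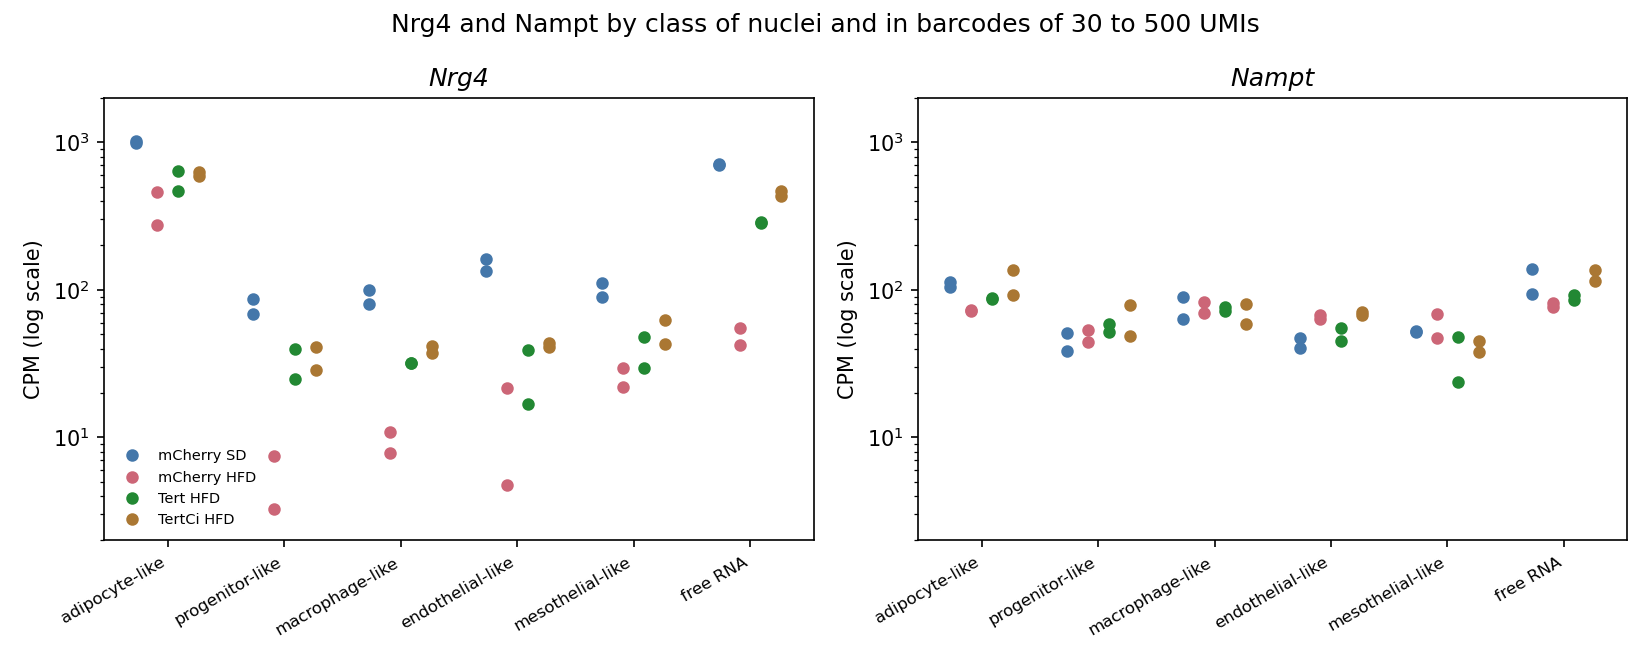
Levels of Nrg4 and Nampt (CPM, log axis) in 5 classes of nuclei and in barcodes of 30 to 500 UMIs, 1 point per mouse, coloured by group. Nrg4 in macrophage-like nuclei was 80.4 and 99.1 CPM in mCherry SD and 7.85 and 10.9 in mCherry HFD, while Nampt in macrophage-like nuclei stayed between 59.0 and 89.3 CPM.

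The free RNA itself was in places richer in adipokine transcripts than adipocyte-like nuclei. Cfd was at 122% to 254% of its adipocyte-like level in the free RNA of the 8 libraries, whereas Lep was at 23.1% to 66.5% and Nrg4 at 9.28% to 79.5%. The lowest Nrg4 percentage was in mCherry HFD mouse A. Retn and Adipoq free RNA was lowest in CPM in mCherry HFD mouse B (19.6) and Tert HFD mouse B (38.5). In barcodes of 10 to 100 UMIs, the window used first, Cfd ran from 64.0% to 318% and the lowest Adipoq was 18.9 CPM in mCherry HFD mouse A, on 2 UMIs of Cfd and 3 of Adipoq in that mouse.

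Single nuclei, each thinned to 1000 UMIs, put both mCherry SD mice above the other 6 for Nrg4, while the 3 high-fat groups overlapped. At least 1 Nrg4 UMI was found in 54.1% and 56.9% of adipocyte-like nuclei in mCherry SD, in 42.2% (117 of 277, exact 95% binomial interval 36.4 to 48.3%) and 30.3% (30 of 99, 21.5 to 40.4%) in mCherry HFD, in 46.1% and 32.7% in Tert HFD, and in 40.9% and 38.9% in TertCi HFD. Mouse A of mCherry HFD thus lay above both TertCi HFD mice and above Tert HFD mouse B, unlike in CPM. Intervals cover counting error only. Unthinned, mCherry HFD had 93.1% and 70.7% and mCherry SD 88.6% and 94.8%. The median UMIs of these nuclei were 17254 and 8082 in mCherry HFD and 4166 and 6023.5 in mCherry SD. The part of depth in the unthinned shares was not tested. In macrophage-like nuclei the thinned share was 7.62% and 7.36% in mCherry SD and 0.971% and 1.23% in mCherry HFD. Lep was found in 194 of 909 and 169 of 1124 adipocyte-like nuclei in mCherry SD and in 72 of 277 and 27 of 99 in mCherry HFD. Nampt was found in 10.8% and 9.88%, and in 8.30% and 11.1%, of the same nuclei, with 5.52% to 8.36% in macrophage-like nuclei.

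The partners of these adipokines were followed in adipocyte-like nuclei with a list of 71 genes in 7 roles, of which 57 passed the filter on low counts. With the diet 8 rose and 11 fell, where 14.2% of all genes were called higher and 9.41% lower; the list's median log2 fold change was 0.20. In TertCi HFD 8 rose and 10 fell (median -0.18; 8.56% and 11.6% of genes), and in Tert HFD 1 rose and 3 fell (median -0.21; 1.64% and 2.98%). Without mCherry HFD mouse A the counts were 0 and 1 with the diet and 0 in both transgenic comparisons, and without mouse B they were 7 and 6, 2 and 3, and 0. Without Tert HFD mouse B the Tert HFD counts were 0, and without mouse A they were 5 and 3. Without mCherry SD mouse A the diet counts were 2 and 5, and without TertCi HFD mouse A the TertCi HFD counts were 7 and 4 and the Tert HFD counts 6 and 3. On library totals the counts were 11 and 8 with the diet, 4 and 22 in TertCi HFD, and 0 and 4 in Tert HFD. Calls over all genes also changed on library totals and without a mCherry mouse, as given above. For fits without a Tert HFD or TertCi HFD mouse they are not given here, so these counts are no result about the list alone.

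Among receptors, 3 of 9 tested rose with the diet and 2 fell, beside 14.2% and 9.41% of all genes. Erbb4, the main receptor of Nrg4, was 60.5 and 135.8 CPM in mCherry SD and 2.72 and 10.9 in mCherry HFD, a fall of 4.74 on the log2 scale (SE 0.67, edgeR adjusted p = 0.00307). It is also a leading gene of cluster 14, of whose 1174 nuclei 965 were from mCherry SD. Adipor2, an adiponectin receptor, fell by 1.38 (adjusted p = 0.00669). Stra6l, a receptor for Rbp4, had 0 and 0.117 CPM in mCherry SD and 5.60 and 3.64 in mCherry HFD, and its fitted rise of 5.40 is no bound. The complement receptors C3ar1 (1.79) and C5ar2 (2.26) rose with the diet and fell in TertCi HFD by 2.05 and 2.42. In Tert HFD C3ar1 was called lower, by 1.74 (edgeR adjusted p = 0.0310), and C5ar2, at -2.03, was not (adjusted p = 0.0537). C3, the central protein of the complement system, rose by 1.81 with the diet (adjusted p = 0.00687), from 11.1 and 14.2 CPM to 55.2 and 62.8, and fell in Tert HFD by 1.44 and in TertCi HFD by 2.60.

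Apoe, a lipoprotein component, rose from 12.5 and 23.6 CPM to 133.6 and 141.0 with the diet (log2 2.52, edgeR adjusted p = 0.00839), and Ccl2, a chemokine for monocytes, rose by 2.19 (adjusted p = 0.0149). Both fell in TertCi HFD, by 2.65 and 3.09, and C1qtnf6 rose and fell alike. In Tert HFD Apoe was also called lower, by 1.99 (edgeR adjusted p = 0.0458), while Ccl2, at -1.34, was not called (adjusted p = 0.113). C3, Apoe, C3ar1 and Ccl2 are also made by macrophages or stromal cells. As given above, the summed macrophage and progenitor markers of these nuclei were highest in mCherry HFD. Of the single macrophage markers, F13a1 went the other way, with 713 and 516 CPM in mCherry SD and 313 and 442 in mCherry HFD, and so did Cd163. The part of such cells in these values was not tested. Agt, the precursor of angiotensin, went the other way, with 37 UMIs in each mCherry SD mouse (7.48 and 4.32 CPM) and 2 and 1 UMIs in the mCherry HFD mice. Its edgeR adjusted p was 0.00769 with the diet and 0.0119 in TertCi HFD, where it had 87 and 23 UMIs; with so few counts its fitted fold is imprecise. Vegfa, an angiogenic factor, was the 1 listed gene that rose in Tert HFD (0.96, adjusted p = 0.0315), and on library totals it was not called (adjusted p = 0.0838).

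Of 9 regulators of adipokine genes 4 fell with the diet and 0 rose, beside 9.41% and 14.2% of all genes. They were Pparg, the master regulator of adipocyte identity, by 1.35 (adjusted p = 0.0164), its partner Rxra by 1.37, Srebf1 by 1.29 and Ebf1 by 1.18, with edgeR. The same 4 were called lower on library totals, where Cebpd and Zfp423 were called higher. Pparg was 2780 and 2410 CPM in mCherry SD and 1429 and 1272 in mCherry HFD. In TertCi HFD Rxra, Ebf1 and Zfp423 rose, and Zfp423 was not called on library totals. Of 10 NAD genes around Nampt, Nmnat3, which makes NAD from the product of Nampt, fell by 1.22 with the diet (adjusted p = 0.00228) and rose by 0.62 in TertCi HFD, a rise that was not called on library totals (adjusted p = 0.669). The other 9 were not called in these 3 comparisons, and on library totals Cd38 was called lower in TertCi HFD. Of 3 genes of adiponectin folding and secretion, Erp44, which retains adiponectin in the secretory pathway, fell with the diet by 0.56 (adjusted p = 0.0398) and was not called on library totals. Of 3 tested retinol partners, Aldh1a1, which makes retinoic acid, fell by 0.79 with the diet and rose by 1.74 in TertCi HFD; the fall was not called on library totals, and its mCherry SD and mCherry HFD levels overlapped.

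**Figure D5:**
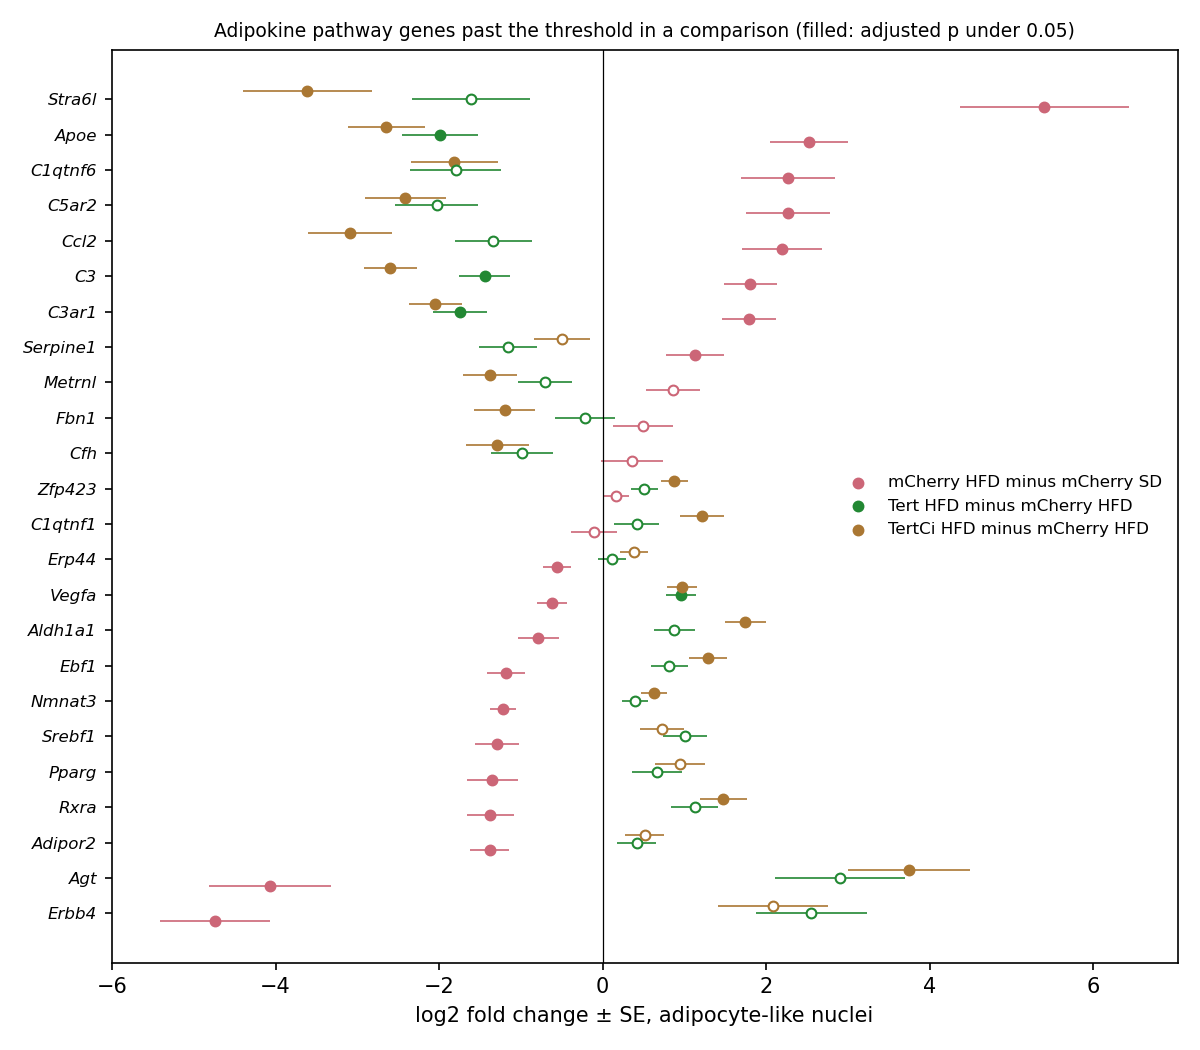
Log2 fold changes with standard errors in adipocyte-like nuclei of the 24 listed adipokine pathway genes that passed the threshold in at least 1 of 3 comparisons, each comparison in its own colour; filled symbols have an edgeR adjusted p under 0.05. Erbb4 was at -4.74 with the diet, and C3, Apoe and Ccl2 were higher with the diet and lower in TertCi HFD.

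The genes whose levels were most like each member were sought over 39 sums of counts per mouse and class in 6 classes, with Pearson's r of log2(CPM + 1), given as a description. The points share libraries, depth and free RNA. Nrg4 was most like Cidec, a lipid droplet protein (r = 0.96), and Acvr1c, an activin receptor (r = 0.96). Lep was most like Slc22a3 (0.92), Plin1 (0.92) and Trarg1 (0.91), Retn like Got1l1 (0.91) and Mrap (0.89), and Adipoq like Lrrc4c (0.89) and Ppp2r1b (0.87). Rbp4 was most like Ppip5k1 (0.89), Xpnpep3 (0.86) and Mrap (0.86), and Cfd like Pnpla2 (0.83), the triglyceride lipase, Ces1d (0.80) and Cyp2e1 (0.79). For Nampt the nearest gene was Klhl5 (0.83), and none of its nearest 3 was an adipocyte marker of the list used here.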

How the data were processed

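Single-nucleus libraries of 8 mice, 2 per group, were analysed from raw matrices of UMI counts that the authors deposited without a filter on barcodes. Cell Ranger 7.1.0 made them per the file headers, while the submitters' processing notes name Cell Ranger 5.0.1, bcl2fastq 2.20.0 and build mm39. The number of mice limits every test, and nothing in the labels records which mice were handled together. Barcodes were kept with at least 300 genes, at most 5% mitochondrial UMIs, and at least 500 UMIs and 0.1 times the 99th percentile of the 5000 largest barcodes. Doublets were the highest scores of scrublet at 0.8% per 1000 nuclei, because its automatic threshold had not worked. Nuclei were clustered with scanpy 1.11.5 (Python 3.11.15, 2000 variable genes without the adipokines and their listed partners, 30 components, 15 neighbours, Leiden resolution 1.0). A cluster was named where at least 3 markers of a type were raised 2-fold and detected in 5% of nuclei, and called mixed where an unrelated list scored over 0.5 of the best.

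Counts were summed per mouse and class and fitted over all genes and all 8 mice with edgeR 4.0.16 (R 4.3.3, TMM, quasi-likelihood, Benjamini-Hochberg), called at an adjusted p under 0.05. The fit was tested on simulated data for the diet comparison in adipocyte-like and all nuclei, with large folds set equally up and down. That does not test smaller folds or a shift in composition. DESeq2 1.42.0, other scalings, no filter, left-out mice, other clusterings and barcode thresholds were alternatives; fits on single clusters, without the deepest nuclei and without the Alb-led cluster were added after seeing the data, as was the free-RNA window of 30 to 500 UMIs. The members and gene lists were chosen with earlier results of these data known. The 7 members were named throughout. Of the listed partners, up to 8 called genes per comparison with the largest log2 fold change were named by rule, and Adipor2, Pparg, Rxra, Srebf1, Ebf1, Zfp423, Cebpd, Nmnat3, Cd38, Erp44 and Aldh1a1 were named after their values were seen. The p-values measure only the spread between 2 mice a group. Proteins, genome coordinates of mm39 and the mCherry feature beyond its total were not used here.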

Additional observations from a re-analysis of the deposited data

Results flagged for a closer look

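The diet effect on Nrg4 differed between classes of nuclei in the test of the difference itself. Adipocyte-like minus progenitor-like, it was 2.62 on the log2 scale (edgeR adjusted p = 0.00153), and adipocyte-like minus macrophage-like it was 1.504 (adjusted p = 0.0174). The second of these was not past the threshold without mCherry SD mouse A (adjusted p = 0.142), mouse B (0.151) or mCherry HFD mouse A (0.85, adjusted p = 0.282).

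The transgenic groups showed the reverse sign for Nrg4 against progenitor-like nuclei. The same mCherry HFD mice enter the diet and the transgenic comparisons on opposite sides, so a reverse sign is partly built in and is no separate result. The Tert HFD effect differed by -2.13 (adjusted p = 0.0240) and the TertCi HFD effect by -2.10 (adjusted p = 0.00860). Without mCherry HFD mouse A these were -0.88 (adjusted p = 0.778) and -0.88 (adjusted p = 0.556). The Tert HFD difference was also not past the threshold without mCherry SD mouse A (adjusted p = 0.0552), mouse B (0.0525) or Tert HFD mouse B (0.0979), nor the TertCi HFD difference without TertCi HFD mouse A (0.116).

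Nampt differed between adipocyte-like and macrophage-like nuclei in its diet effect (-0.88, adjusted p = 0.0223) and in its TertCi HFD effect (1.16, adjusted p = 0.00164), with the values for left-out mice given with those results.

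Rbp4 reached 513 CPM in 1 mixed cluster led by Alb in mCherry HFD mouse A, a cluster outside the comparisons of classes. Its 32 nuclei in that library held 135 of the 464 Rbp4 UMIs of all nuclei (29.1%), beside 2817 CPM of Alb and 1167 CPM of Ttr, and mCherry SD had 0 nuclei there. Without that cluster the diet log2 fold change of Rbp4 over all nuclei was -2.58.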

How the results depend on the processing

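Members called with the diet in adipocyte-like nuclei numbered 5, and 1 on library totals, 3 with mixed clusters given to their best class, 2 at 1000 UMIs in every library, 1 without nuclei over 3 times the library median, 1 within cluster 11 and 0 within cluster 15. In TertCi HFD the 5 became 1 on library totals, 1 at 1000 UMIs, 2 without the deepest nuclei, 0 within cluster 11 and 0 within cluster 15. In Tert HFD the 0 became 2 with DESeq2, 6 without a filter, 2 with doublets kept and 2 within cluster 5. Among these alternatives, calls over all genes are given above only for library totals and left-out mCherry mice, where they changed too. The counts here are therefore no result about the members alone. Over all nuclei the adipocyte UMI share as covariate left 0, 0 and 0, but this share nearly sets mCherry HFD apart from the other groups, as given above. Without a filter, also over all nuclei, Tert HFD against TertCi HFD gave 2. In progenitor-like nuclei the 2 in Tert HFD became 1 on library totals and 1 with DESeq2, and the 2 in TertCi HFD became 5 without a filter. Leaving out 1 mouse gave 1 to 6 calls with the diet, 0 to 2 in Tert HFD and 1 to 5 in TertCi HFD in adipocyte-like nuclei. The same ranges were 5 to 7, 3 to 6 and 5 to 7 over all nuclei, 1 to 4, 0 to 2 and 1 to 4 in progenitor-like, and 1 to 3, 1 to 3 and 1 to 4 in macrophage-like nuclei. For the class differences the range was 0 to 2 in each comparison with mCherry HFD, and for Tert HFD against TertCi HFD it was 0 to 0 in every class. Signs turned within cluster 15 for Adipoq with the diet (0.10) and Lep in TertCi HFD (-0.013), and within cluster 11 for Lep (-0.039) and Rbp4 (-0.29) in Tert HFD and Cfd in TertCi HFD (-0.014). With the covariate, over all nuclei, Lep was 0.67, -0.70 and -0.96 and Nampt 0.15, -0.62 and -0.38 with the diet, in Tert HFD and in TertCi HFD. Leaving out a mouse gave -0.20 to 0.33 for Lep with the diet, 0.11 to 1.39 for Adipoq and 0.09 to 0.92 for Lep in Tert HFD, and -3.06 to -1.34, -0.22 to 1.59 and 0.21 to 1.62 for Cfd with the diet, then Tert HFD, then TertCi HFD. The cause of these changes was not tested, and the fits within cluster 15 rested on few mCherry nuclei, as given above. No paired analysis was possible because the groups share no replicate numbers; in the class differences the mouse was the block, and with no replicate block 0 members were called against macrophage-like nuclei with the diet and 0 in TertCi HFD, and 0 against progenitor-like nuclei in either transgenic group. The 99 adipocyte-like nuclei of mCherry HFD mouse B had 12 UMIs of Cfd and 17 of Rbp4.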
